A study of Mus musculus with 4 samples.

Results

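The RUNX family and CBF-beta comprise 4 genes, Runx1, Runx2, Runx3 and Cbfb, taken by symbol from the 21829 protein-coding genes of GENCODE M21. Every DNase interval that met a member's gene body plus 50 kb on each side was included: 287 of 298793 peaks and 211 of 247031 hotspots in biosample 1, and 87 of 97430 peaks and 78 of 88636 hotspots in biosample 2. A hotspot is a region in which DNase I cuts chromatin more often than its surroundings, and a peak is a narrow summit interval, here 150 bp wide. The cells were 3T3-L1, an immortalized mouse line derived from embryo fibroblasts and widely used to study fat cell formation. The labels give the strain as C57BL/6J, name no treatment and leave age and sex unknown, and all groups share these features. There were 4 libraries from 2 biosamples, 2 libraries each, and whether these were separate cultures is not stated in the labels.

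RUNX proteins bind DNA through the Runt domain, and CBF-beta, encoded by Cbfb, binds that domain and strengthens its hold on DNA without touching DNA itself. Runx1 is known as a master regulator of blood stem cell formation, Runx2 of bone cell formation, and Runx3 of T cell and sensory neuron development. Each RUNX gene is transcribed from a distal promoter, P1, and a proximal promoter, P2, and the isoforms differ in their N termini. P1 promoters carry few CpG dinucleotides and are known as the more lineage-restricted starts, whereas P2 promoters lie in CpG islands.

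The authors had pooled the libraries of each biosample into 1 list, so no spread between replicates could be measured and no test was possible. Values are therefore descriptions of 2 lists. The deposited peak score is the authors' own value, with no definition in the sources used here. Scores were therefore ranked within their own list, and a percentile below is the place of a score in that ranking. The list of biosample 1 was the longer by far, and sequencing depth was unknown, so the part of list length in any site present in biosample 1 alone was not tested. Of the fibroblast markers, 8 of 8 had a peak within 1 kb of a start site in both lists, beside 51.8% of coding genes. Among them were Col1a2 (scores 148 and 87) and Vim (146 and 90). The count was 0 of 5 for blood, 0 of 4 for bone and 0 of 3 for epithelial markers. It was 1 of 3 for endothelial (Cdh5) and 1 of 6 for mature adipocyte markers (Plin1). Of the 12 blood targets of RUNX proteins listed further below, 3 had a promoter peak in both lists. The marker lists were chosen with earlier results of these data known, so these counts are no independent check of the labelled cell type.

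The P1 promoters of the 3 RUNX genes shared a sequence element. Within 1 kb of each P1 start, the RUNX word TGTGGT (read on either strand, where it appears as ACCACA) occurred as a pair on the same strand, 8 bp from the first base of one word to the first base of the next. The 30 bases around each pair are printed on the gene's strand (mm10), because they place RUNX words inside or beside the DNase sites of the RUNX genes' own promoters. Capitals mark the words.

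Runx1 P1 pair, chr16:92826025-92826054, minus strand: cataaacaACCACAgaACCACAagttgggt

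Runx2 P1 pair, chr17:44814583-44814612, minus strand: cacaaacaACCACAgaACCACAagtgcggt

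Runx3 P1 pair, chr4:135120503-135120532, plus strand: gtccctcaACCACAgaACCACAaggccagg

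A run of 18 bases was identical in all 3 sequences. Over the 30 bases, the Runx1 and Runx2 stretches were identical at 27 positions, Runx1 and Runx3 at 19, and Runx2 and Runx3 at 21. The stretches were chosen for their paired words, so the bases in capitals match by choice, in the run of 18 and in these counts. Such a pair lay within 1 kb of the most upstream coding start in 22 of the 21829 genes (0.101%), and Runx1, Runx2 and Runx3 were 3 of these 22. The pair and its spacing were picked from these same 3 promoters, so their place among the 22 was fixed in advance and is no test. In Runx1 the words began 103 and 111 bp downstream of the P1 start, inside a peak of both lists. In Runx3 they began 141 and 133 bp upstream of the annotated P1 start, inside a peak of biosample 1. In Runx2 they began 193 and 201 bp downstream of the start, inside the hotspot of biosample 1 and at the edge of that of biosample 2, but in no peak. A word match describes the letters only and is no evidence that a RUNX protein was bound.

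The gene bodies lie at chr16:92601466-92826149 for Runx1, chr17:44495987-44814797 for Runx2, chr4:135120652-135177990 for Runx3 and chr8:105170674-105217989 for Cbfb. Peaks were densest in the Cbfb window and sparsest in that of Runx3, flanks included (plot of peaks across the 4 windows). Runx1 had 90 peaks in biosample 1 and 24 in biosample 2, and Runx2 had 113 and 34. Runx3 had 32 and 11, and Cbfb 52 and 18. Per 100 kb of window, biosample 1 gave 27.7 peaks for Runx1, 27.0 for Runx2, 20.3 for Runx3 and 35.3 for Cbfb, where the median protein-coding gene measured the same way had 18.3. Biosample 2 gave 7.39, 8.12, 6.99 and 12.2 per 100 kb, beside a median gene at 6.33. Among all coding genes these densities stood at percentiles 77.1, 75.2, 56.3 and 89.6 in biosample 1 and at 58.7, 64.8, 55.9 and 86.6 in biosample 2. All 4 members were thus above the median gene in both lists with the flanks included. The order of the members changed without the flanks, which for Cbfb hold the starts of other genes. In the gene bodies alone, Runx1 had 29.8, Runx2 31.1, Runx3 14.0 and Cbfb 25.4 peaks per 100 kb in biosample 1, and 7.57, 9.72, 5.23 and 4.23 in biosample 2. No median over all genes is at hand for bodies alone, and the medians above are for windows with flanks.

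**Figure D1:**
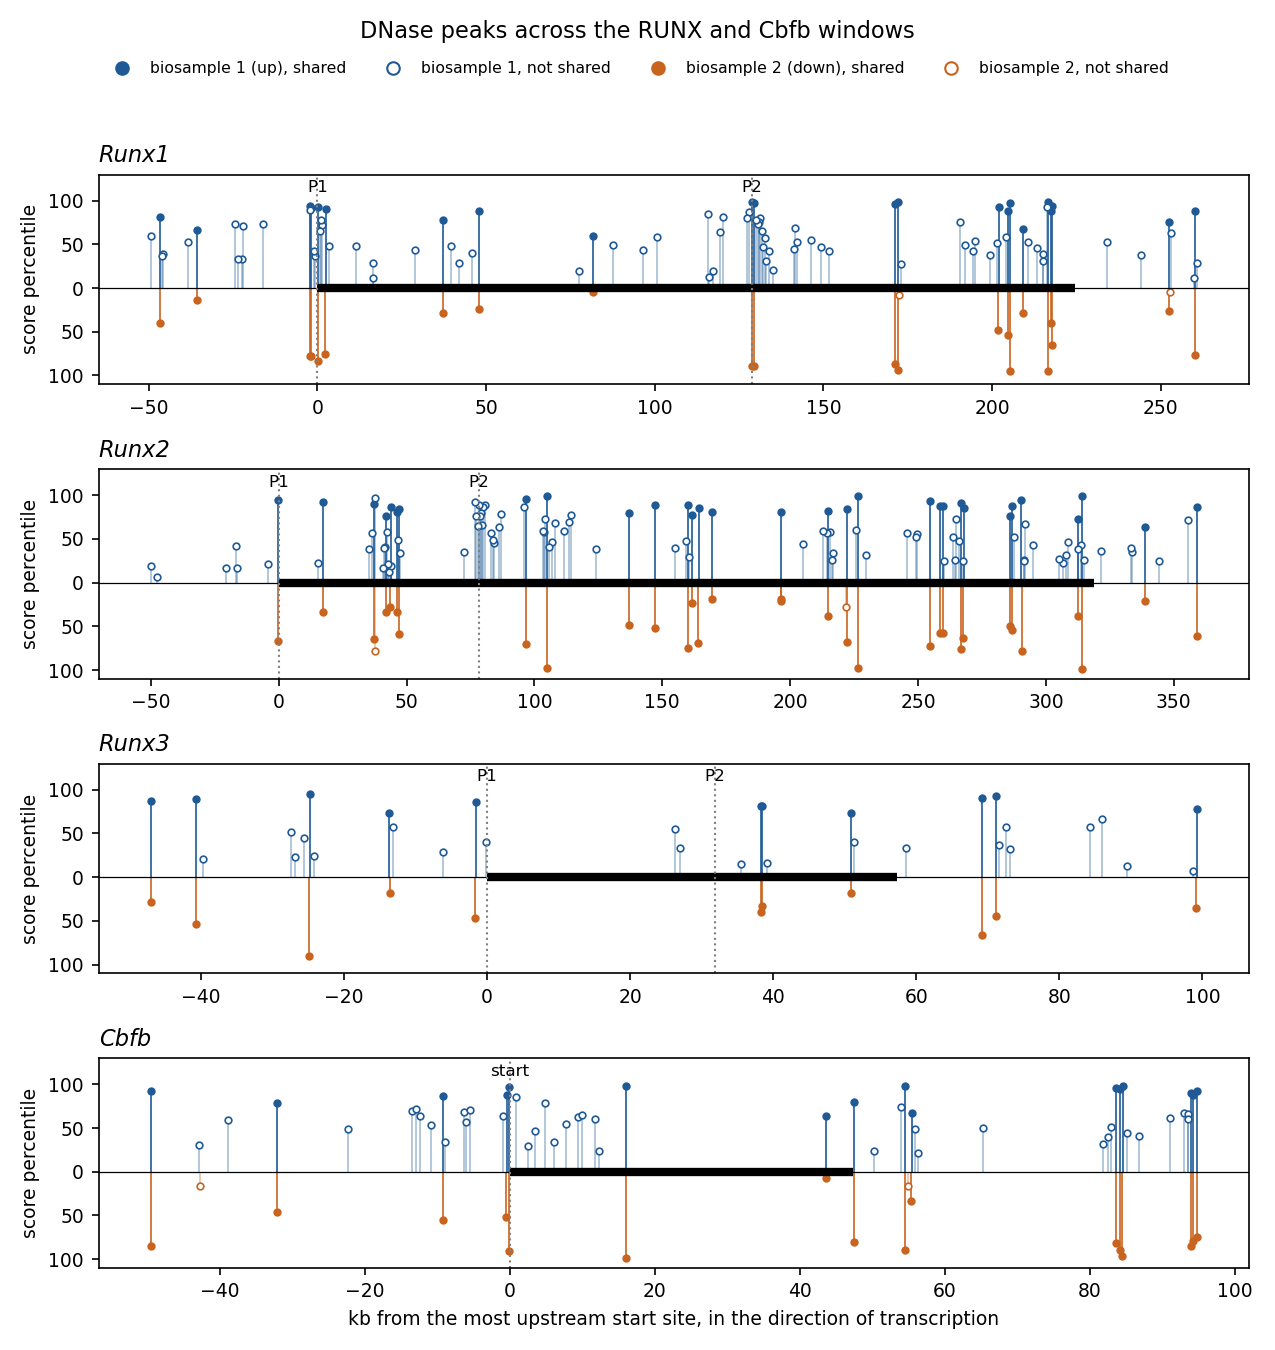
Peaks in the gene body plus 50 kb on each side of the 4 members, placed by distance in kb from the most upstream start site (black bar: gene body; dotted lines: P1, P2 or the Cbfb start). Height is the percentile of the peak's score in its own list, upward for biosample 1 and downward for biosample 2; filled circles meet a peak of the other list. The cluster of open circles at Runx2 P2 has no counterpart in biosample 2, and few peaks of either list lie between P1 and P2 of Runx3.

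Of the 287 peaks of biosample 1 in the windows, 80 overlapped a peak of biosample 2 (1 bp or more; 27.9%, Wilson 95% interval 23 to 33.3), where 30.4% of the whole list did. Of the 87 peaks of biosample 2, 81 met a peak of biosample 1 (93.1%, 85.8 to 96.8), beside 93.5% of the whole list. The intervals cover counting error only. Hotspots behaved alike: 64 of 211 of biosample 1 met one of biosample 2 (30.3%, whole list 30.7%), and 78 of 78 the other way (whole list 98.5%). These shares were near their backgrounds. The remaining 6 peaks of biosample 2 also lay in hotspots of biosample 1, so that no site of biosample 2 in the windows was missing from biosample 1. Shared peaks ranked higher than the others: in biosample 1 the median percentile was 88.2 for the shared and 48.0 for the unshared peaks of the windows, beside 83.4 and 35.1 over the whole list. Of the 36 window peaks at or above the 90th percentile in biosample 1, 33 were shared (91.7%, beside 94.5% of such peaks in the whole list), and the 3 that were not lay in Runx1 (1) and Runx2 (2). The other members' strongest unshared peaks were weaker, at 84 for Runx3 and 114 for Cbfb (at its start) in biosample 1. In biosample 2 the strongest unshared peaks scored 14 for Runx1 and 18 for Cbfb, with none for Runx3. The widest hotspot of each window was 6136 bp for Runx1 (at P1), 3148 bp for Runx2 (at P2), 3044 bp for Cbfb (at the start of its neighbour B3gnt9) and 1598 bp for Runx3 (intergenic) in biosample 1. In biosample 2 it was 1279, 812, 1559 and 728 bp in the same order of genes, and only the Cbfb window had it at the same place.

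At the start sites, 4 of 7 groups had a peak within 1 kb in both lists: Runx1 P1, Runx1 P2, Runx2 P1 and the Cbfb start. Per gene, this made 3 of the 4 members, beside 51.8% of all coding genes. Runx2 P2 and Runx3 P1 had peaks in biosample 1 alone, and Runx3 P2 had none in either list.

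Runx1 was accessible at both promoters. At P1 (start at chr16:92826149, minus strand), the strongest peak had a score of 129 in biosample 1 (percentile 92.4) and 59 in biosample 2 (83.4). It lay in the first exon and held the paired RUNX words printed above. Around it, biosample 1 had a single hotspot of 6136 bp that took in 10 peaks with scores of 54 to 133. Of the 247031 hotspots of that list, 73 were at least as wide (0.0296%). Biosample 2 had 3 separate hotspots within the same span, 1799 bp in all. Each of the 3 held peaks that were shared: a pair 1.76 and 2.08 kb upstream of P1 (127 and 133 in biosample 1, 53 and 53 in biosample 2), the P1 peak itself, and one 2.46 kb downstream (125 and 50).

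At Runx1 P2 (start at chr16:92697328, 129 kb downstream of P1), there were 2 shared sites. The first covered the start, with a score of 145 in biosample 1 (percentile 99) and 67 in biosample 2 (88.9), and was the strongest start-site peak of any member in biosample 1. The second began 463 bp downstream of it, with 141 and 67. The remaining 4 peaks of biosample 1 within 1 kb of the P2 starts scored 95 to 117 and met none of biosample 2. The hotspot there was 6128 bp wide in biosample 1 with 12 peaks, whereas biosample 2 had hotspots of 294 and 262 bp. Their −log10 q values of 3.64 and 4.24 were not at the cap of 100. No hotspot of the 4 windows had a value between 6 and 100, so the distance to the cap has no meaning. The part of the peak before the P2 start is printed as the strongest start-site sequence of Runx1, and the capitals mark 1 ETS word, CCGGAA. This stretch held no RUNX word, but the 2 kb around the P2 start held 1, which lay 634 bp downstream of it in the second shared peak of biosample 2.

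Runx1 P2 peak, chr16:92697329-92697445, minus strand: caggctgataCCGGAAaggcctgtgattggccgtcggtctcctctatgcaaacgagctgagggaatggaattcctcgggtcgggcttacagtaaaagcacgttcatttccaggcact

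Runx2 differed between its promoters. P1 (start at chr17:44814797, minus strand) had 1 peak in each list, just upstream of the start, with a score of 134 in biosample 1 (percentile 94.7) and 43 in biosample 2 (66.3). The hotspots around it were 1012 and 579 bp wide and both stood at the cap of 100 for −log10 q. The cap was common: 121961 of the 247031 hotspots of biosample 1 and 37951 of the 88636 of biosample 2 stood at it. The 2 kb around this start held 6 RUNX words, a number reached at the upstream start of 0.60% of coding genes, the median gene having 1. The word 174 bp upstream of the start lay in the peak of both lists, together with an AP-1 word, TGANTCA. The 150 bases of the biosample 1 peak show both in capitals.

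Runx2 P1 peak, chr17:44814916-44815065, minus strand: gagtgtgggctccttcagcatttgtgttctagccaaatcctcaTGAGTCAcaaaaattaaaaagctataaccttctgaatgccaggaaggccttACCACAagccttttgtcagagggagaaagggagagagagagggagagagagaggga

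At Runx2 P2 (start at chr17:44736648, 78.1 kb downstream of P1), 7 peaks of biosample 1 lay within 1 kb of the start sites, with scores of 82 to 122. They sat in adjoining hotspots of 3148 and 1972 bp, which together held 9 peaks with scores up to 128. Both hotspots were at the cap, like many of that list. Biosample 2 had neither a peak nor a hotspot there, and its nearest peak was 17.3 kb away. Of the 7228 peaks of biosample 1 scoring 120 to 124, around the top P2 peak at 122, 90.5% met a peak of biosample 2. For peaks scored like the other P2 peaks the share was lower, 87.9% around the score of 117, 73.2% around 105, 63.8% around 99 (2 peaks), 37.0% around 84 and 33.6% around 82, so several of them were of a rank that often had no counterpart. Of its 1512 hotspots of at least 3000 bp, 95.2% met a hotspot of biosample 2 and 73 did not. Of the 21803 coding start sites whose best biosample 1 peak ranked at least as high as that of Runx2 P2, 141 (0.647%) had no peak of biosample 2 within 1 kb. This set takes in sites with stronger peaks, so its share does not describe sites of like rank. The median gene with a promoter peak in biosample 1 had its best peak at percentile 94.2, beside 89.2 for Runx2 P2. A gene with several start sites counts more than once. With 1 pooled list per biosample, a difference between the biosamples and one between their libraries cannot be told apart.

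Runx3 was the least accessible member at its starts. P1 (start at chr4:135120652, plus strand) had 1 peak in biosample 1 with a score of 57 (percentile 40.7) in a hotspot of 194 bp and −log10 q of 3.22, and none in biosample 2. This peak held the paired RUNX words. A shared site lay further upstream, 1.55 kb from P1 in biosample 2, with scores of 116 (percentile 86.1) and 31 (46.3). P2 (start at chr4:135152496, 31.8 kb downstream) had no peak within 1 kb in either list. The nearest peaks were 3.54 kb away in biosample 1 and 6.32 kb away in biosample 2.

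Cbfb, the shared partner, was accessible in both lists at its single start group (most upstream start at chr8:105170674, plus strand). Its strongest peak covered the same 150 bp in both, with scores of 140 (percentile 97.2) and 71 (91.1), the highest start-site score of any member in biosample 2. A second shared peak, ending 349 bp upstream of the nearest start in biosample 1, scored 119 and 34. The hotspot was 2876 bp wide in biosample 1, and biosample 2 had hotspots of 624 and 67 bp within it. The peak is printed as the strongest start-site peak of biosample 2. The 2 kb around the Cbfb start held 0 RUNX words. Capitals mark 1 SP/KLF word, GGGCGG.

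Cbfb start peak, chr8:105170496-105170645, plus strand: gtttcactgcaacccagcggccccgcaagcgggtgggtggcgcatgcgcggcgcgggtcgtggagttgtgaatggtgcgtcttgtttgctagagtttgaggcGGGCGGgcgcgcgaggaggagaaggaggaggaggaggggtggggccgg

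Ranked among the genes with a peak within 1 kb of a start in the list, the best promoter peak of Runx1 stood at percentile 88.3 in biosample 1 and 57.3 in biosample 2. Cbfb stood at 70.1 and 63.9, Runx2 at 52.4 and 21.5, and Runx3 at 8.24 in biosample 1 with no value in biosample 2. Since 2 lists give no spread, neighbours in this order were not tested against each other.

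**Figure D2:**
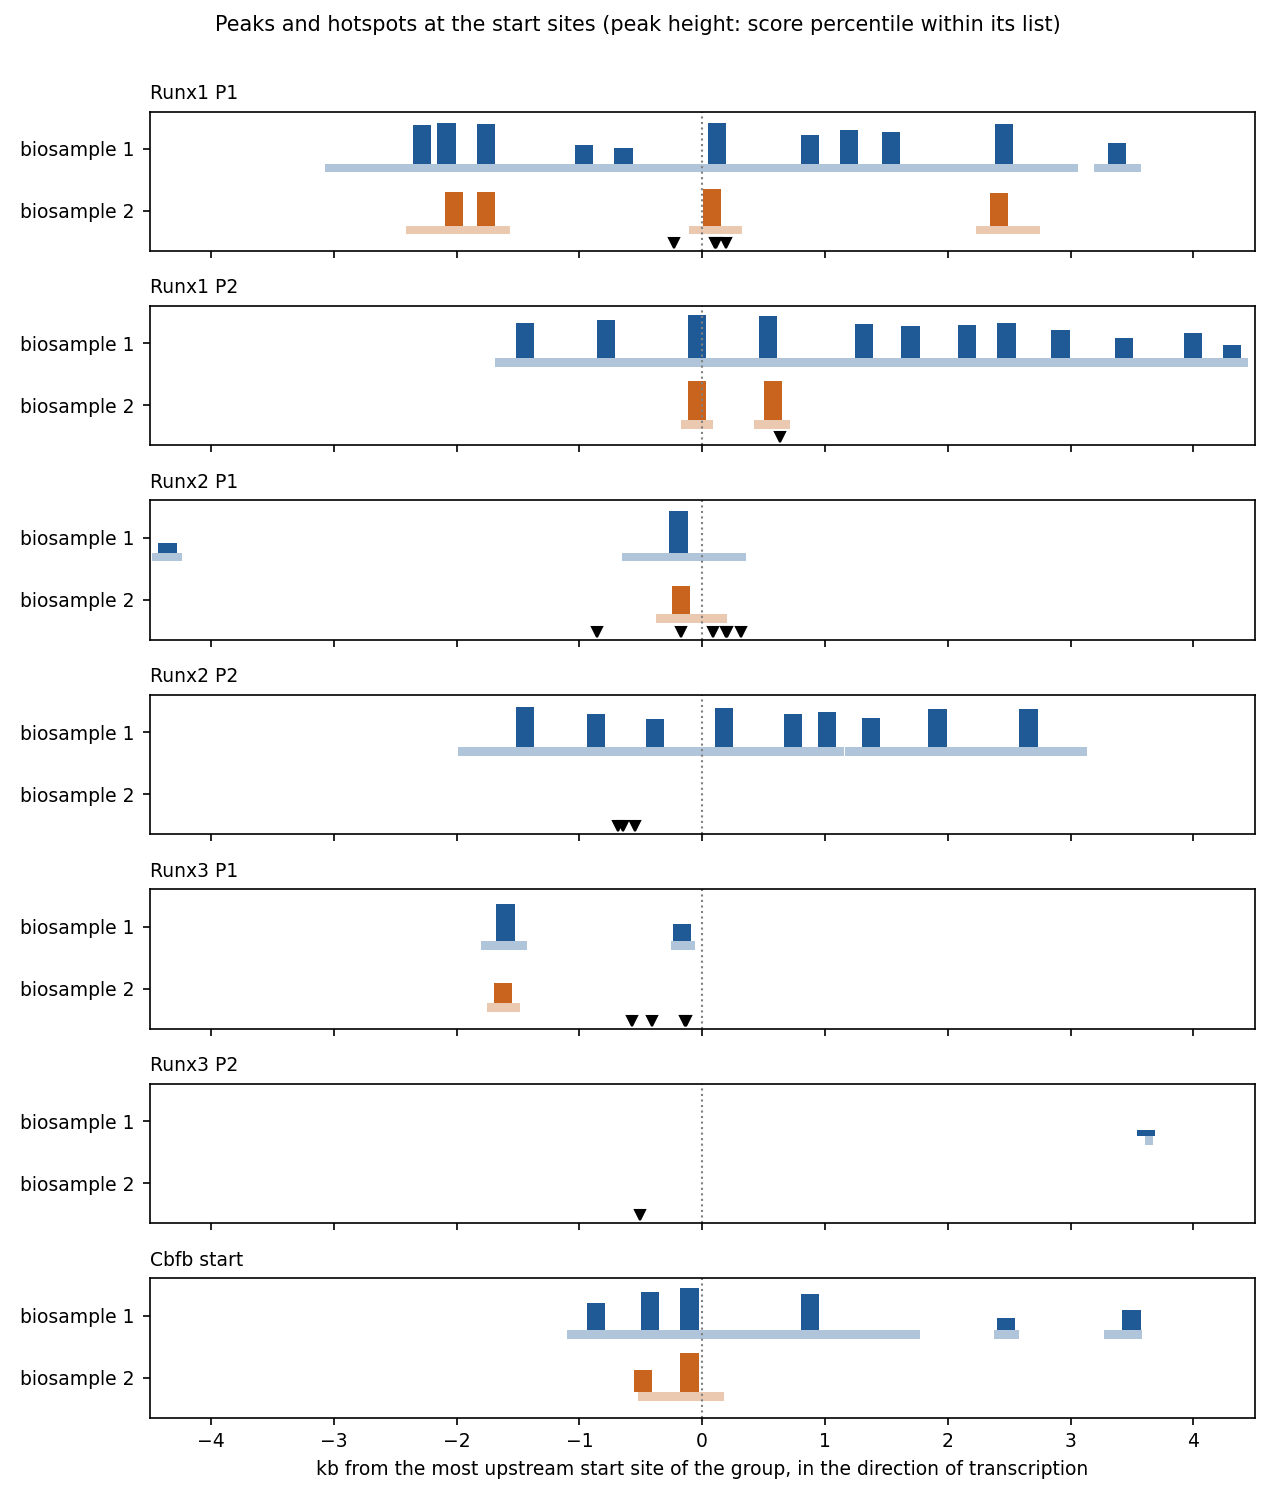
Peaks (boxes, height by score percentile in the peak's own list) and hotspots (pale bars) within 4.5 kb of the 7 start groups, in kb from the most upstream start of the group; triangles mark RUNX words within 1 kb of that start, and the paired words of the 3 P1 groups overlap in this view. Runx2 P2 has 2 wide hotspots in biosample 1 and an empty row for biosample 2.

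CpG content divided the P1 from the P2 promoters. The observed over expected CpG ratio in the 1 kb centred on the start was 0.310 at Runx1 P1, 0.164 at Runx2 P1 and 0.360 at Runx3 P1, below the median coding gene at 0.561. It was 0.867 at Runx1 P2, 0.898 at Runx2 P2, 0.951 at Runx3 P2 and 0.928 at the Cbfb start. Of the genes with a ratio of at least 0.6 at their upstream start, 78.5% had a peak there in both lists, 6.26% only in the first and 15.2% in neither. Of the 4 member starts above 0.6, Runx1 P2 and the Cbfb start had a peak in both lists, Runx2 P2 in biosample 1 alone and Runx3 P2 in neither. Of the genes below 0.6, 22.1% had a peak in both lists, 13.5% only in the first and 64.3% in neither. Of the 3 P1 starts, all below 0.6, those of Runx1 and Runx2 had a peak in both lists and that of Runx3 in biosample 1 alone.

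**Figure D3:**
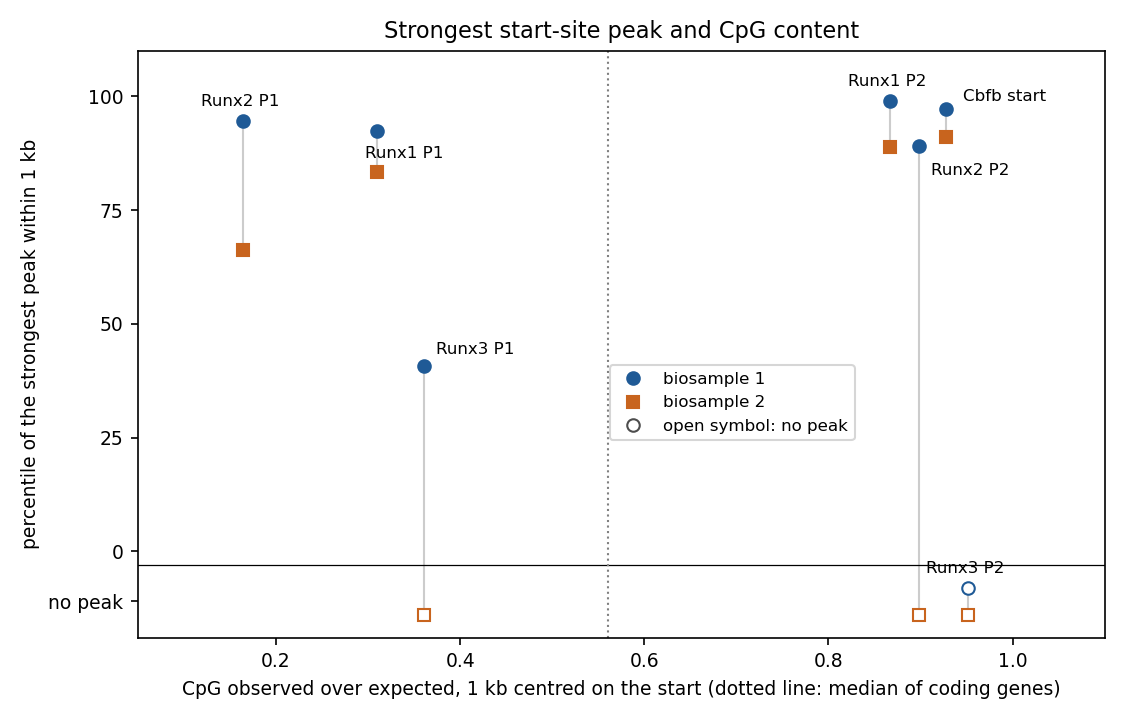
Percentile of the strongest peak within 1 kb of each start group (circles: biosample 1; squares: biosample 2; open symbols below the line: no peak) against the observed over expected CpG ratio in the 1 kb centred on the start, with the median coding gene as a dotted line. Runx1 P1 and Runx2 P1 have peaks in both lists at low ratios, and Runx3 P2 has none at 0.951.

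Away from the starts, most sites were intronic. Introns of the members held 164 of the 287 peaks of biosample 1 (57.1%) and 48 of the 87 of biosample 2 (55.2%), and 63 and 20 were intergenic. In biosample 1 they held 57 of 90 peaks for Runx1, 88 of 113 for Runx2, 8 of 32 for Runx3 and 11 of 52 for Cbfb. In biosample 2 the introns held 14 of 24, 29 of 34, 3 of 11 and 2 of 18 in the same order. No intronic share of the whole list is at hand for comparison. The segment densities that follow count all peaks, those at start sites included. In Runx1 the densest segment ran from P2 to the gene end, with 40.7 peaks per 100 kb in biosample 1 and 11.5 in biosample 2, against 21.7 and 4.66 in the P1 to P2 interval. Runx2, with all peaks counted, had 31.6 and 9.97 after P2 and 29.4 and 8.96 before it. The segment before P2 took in the start of another gene, Supt3, with 3 peaks of biosample 1 and 2 of biosample 2. Densities without start-site peaks were not computed, so the likeness of the 2 segments does not extend to distal sites. Runx3 had only 2 peaks of biosample 1 and 0 of biosample 2 in the 31.8 kb between its promoters, and in its 2 flanks together held 24 of its 32 and 8 of its 11 peaks.

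**Figure D4:**
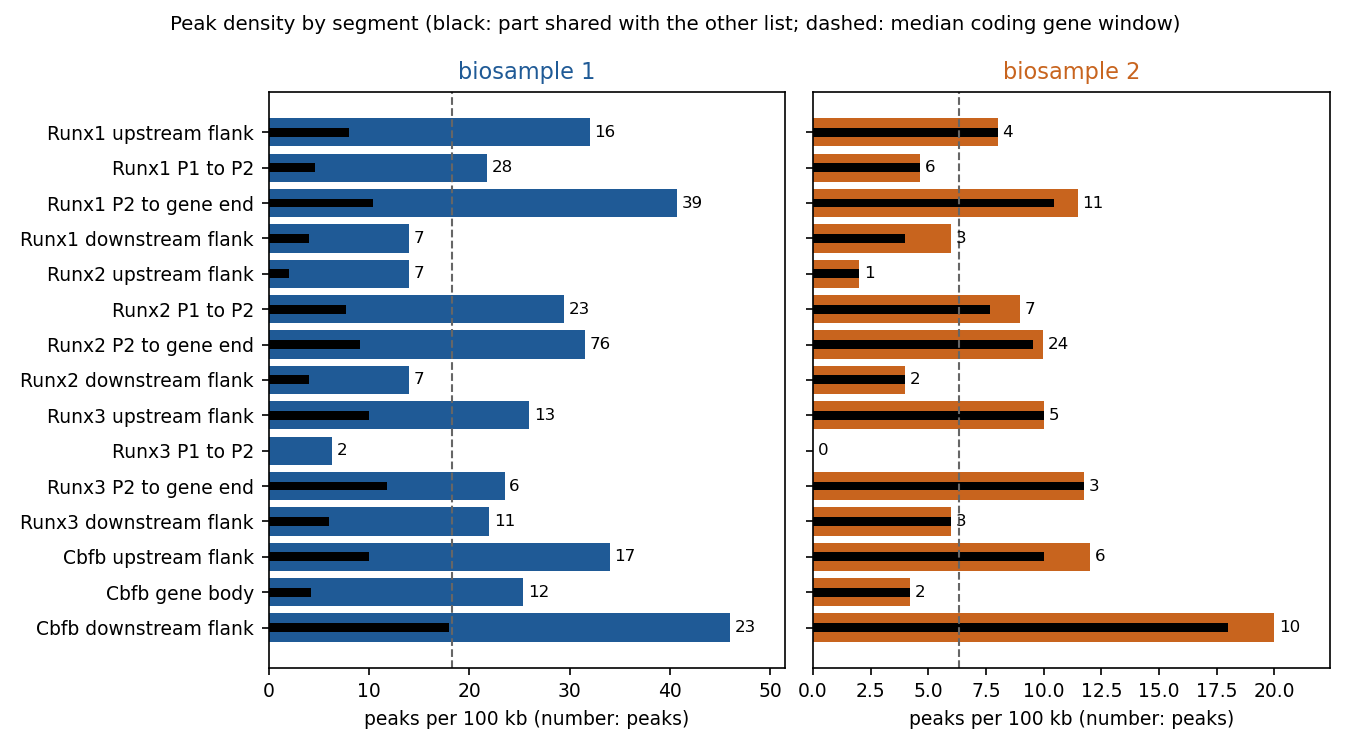
Peaks per 100 kb in each segment of the 4 windows, with the number of peaks beside each bar; black bars give the part shared with the other list and the dashed line the median coding gene window (18.3 in biosample 1, 6.33 in biosample 2). Runx1 after P2 and the downstream flank of Cbfb are the densest segments of biosample 1, and the P1 to P2 interval of Runx3 is the sparsest.

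The strongest shared distal sites of Runx1 were all in the introns after P2. The peak at chr16:92609416-92609565, 217 kb downstream of P1, had scores of 143 and 81, and that at chr16:92620836-92620985 had 142 and 78 with 2 AP-1 words. A pair less than 1 kb apart followed: chr16:92653936-92654085 with 144 and 77, and chr16:92654736-92654885 with 139 and 63. The first of the pair is printed because it held a RUNX word and an AP-1 word in one strong shared site, both in capitals. The strongest Runx1 peak that met none of the other list scored 129 in biosample 1 (chr16:92609776-92609925) and lay in a hotspot of biosample 2. The interval 22 to 26 kb downstream of the P1 start, where a blood stem cell enhancer of Runx1 known as +23 lies, held 0 peaks and 0 hotspots in both lists. The P1 to P2 segment around it had 21.7 peaks per 100 kb in biosample 1 and 4.66 in biosample 2. At such densities an interval this short is often empty, so the count of 0 is no result about the enhancer.

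Runx1 distal site, chr16:92653936-92654085, minus strand: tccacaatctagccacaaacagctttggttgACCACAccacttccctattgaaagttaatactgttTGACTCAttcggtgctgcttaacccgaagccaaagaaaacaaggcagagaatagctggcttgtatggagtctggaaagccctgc

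By mean percentile over both lists, the top 3 distal sites of Runx2 stood above all others of the RUNX genes. The 4 best shared sites of Runx2 were chr17:44500576-44500725 with scores of 144 and 93, chr17:44588096-44588245 with 146 and 89, chr17:44709996-44710145 with 145 and 88, and chr17:44524276-44524425 with 133 and 53. All but the third of these lay past the coding part, 103, 15.8 and 79.7 kb beyond the last base of any protein-coding Runx2 transcript (chr17:44604001), inside the 1 transcript annotated to the gene that reaches so far, classed as subject to nonsense-mediated decay. This 108 kb stretch held 41 peaks of biosample 1 (38.0 per 100 kb) and 14 of biosample 2 (13.0 per 100 kb), denser than the 132.647 kb from P2 to the coding end, which held 35 (26.4 per 100 kb) and 10 (7.54 per 100 kb). The site nearest the gene's far end is printed for its 2 AP-1 words, in capitals.

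Runx2 distal site, chr17:44500576-44500725, minus strand: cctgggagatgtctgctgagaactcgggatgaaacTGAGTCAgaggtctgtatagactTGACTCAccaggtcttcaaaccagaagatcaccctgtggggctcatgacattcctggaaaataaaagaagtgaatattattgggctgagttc

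The strongest Runx2 window peaks without a partner lay at the start of another gene, Supt3, a subunit gene of the SAGA coactivator complex that overlaps Runx2 and is read from the opposite strand. There, a biosample 1 peak of 140 and a biosample 2 peak of 53 lay side by side at chr17:44776916-44777065 and chr17:44777076-44777225 without meeting, each inside a hotspot of the other list.

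For Runx3 the best shared site was intergenic, at chr4:135095776-135095925, 24.8 kb upstream of P1, with 136 (percentile 95.5) and 70 (90.6). It was the 1 Runx3 peak of biosample 2 above the 90th percentile. The next 3, at 69.2 and 71.1 kb downstream and 40.7 kb upstream of P1, scored 125, 129 and 123 in biosample 1. In biosample 2 they scored 43, 30 and 35. Their percentiles were 90.6, 92.4 and 89.6 in biosample 1 and 66.3, 44.2 and 53.8 in biosample 2. Shared peaks of the whole lists likewise had a lower median percentile in biosample 2 than in biosample 1, so the lower ranks are not particular to Runx3. Within the gene, 3 shared sites lay 38.2, 38.5 and 50.9 kb from P1, with scores of 107, 108 and 94 in biosample 1 and 28, 25 and 19 in biosample 2. The upstream site is printed with its AP-1 word in capitals.

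Runx3 distal site, chr4:135095776-135095925, plus strand: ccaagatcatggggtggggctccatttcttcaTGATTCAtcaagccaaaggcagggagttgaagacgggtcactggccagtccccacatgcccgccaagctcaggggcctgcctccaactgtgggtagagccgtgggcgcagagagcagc

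Cbfb had 1 strong site in its introns, at chr8:105186676-105186825, 16.1 kb downstream of the start, with scores of 143 (percentile 98.3) and 96 (98.8). The latter was the highest score of any member window in biosample 2, above that of the Cbfb start itself. Other strong sites of the window included starts of neighbouring genes: B3gnt9, a glycosyltransferase gene, with 142 and 86, and the uncharacterised gene D230025D16Rik with 143 and 69. Fbxl8 and Tradd, which share their peaks, had a highest score of 129 in biosample 1 and of 61 in biosample 2, at different sites. An intergenic shared peak 49.5 kb upstream of the Cbfb start scored 130 (percentile 92.9) and 61 (84.9). Tradd encodes an adaptor of the tumour necrosis factor receptor. Ces4a, a carboxylesterase gene, had a peak of 74 in biosample 1 alone. Of the 18 Cbfb window peaks of biosample 2, 9 lay at such starts of other genes. The intronic site is printed with its AP-1 word in capitals.

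Cbfb intronic site, chr8:105186676-105186825, plus strand: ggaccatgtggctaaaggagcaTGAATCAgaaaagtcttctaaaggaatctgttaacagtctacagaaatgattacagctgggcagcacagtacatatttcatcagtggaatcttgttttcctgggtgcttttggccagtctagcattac

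The RUNX word was about as frequent in the windows of the RUNX genes as elsewhere. It occurred in 53 of 287 peaks of biosample 1 (18.5%, 14.4 to 23.4) beside 17.4% of the whole list, and in 16 of 87 of biosample 2 (18.4%, 11.6 to 27.8) beside 16.3%. The AP-1 word was the most frequent of the 8 searched. It occurred in 67 peaks of biosample 1 (23.3%, 18.8 to 28.6) beside 22.1%, and in 33 of biosample 2 (37.9%, 28.5 to 48.4) beside 25.8%. Among the shared peaks of biosample 1 it reached 40.0% (32 of 80) in the windows and 27.1% in the list. By member, AP-1 words lay in 10 of 24 biosample 2 peaks of Runx1, 17 of 34 of Runx2, 5 of 11 of Runx3 and 1 of 18 of Cbfb. The TEAD word GGAATG (12.2% and 12.6%, beside 13.3% and 13.5%), the C/EBP word TTGCNNAA (7.67% and 11.5%, beside 7.48% and 7.62%), the ETS word CCGGAA (3.83% and 4.60%, beside 2.90% and 5.02%) and the SP/KLF word GGGCGG (5.23% and 10.3%, beside 6.26% and 11.0%) had intervals that took in the whole list's share. The cAMP response element TGACGTCA was in 0 peaks, beside 0.351% and 0.641%. The CTCF consensus was in 4 of 287 (1.39%, 0.543 to 3.53) beside 3.68% and in 2 of 87 (2.30%, 0.633 to 8.0) beside 7.36%. All words were read on both strands, and peaks that lie near each other are not independent draws.

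**Figure D5:**
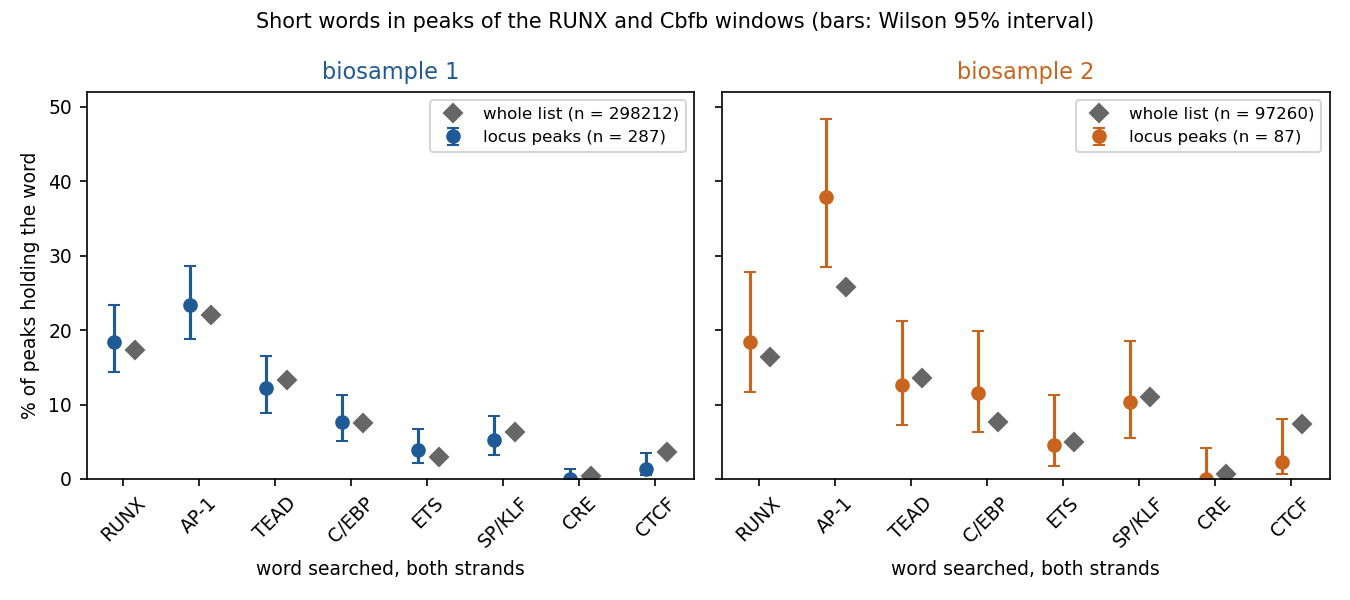
Share of peaks that hold each word on either strand, for peaks of the 4 windows (circles, with Wilson 95% intervals for counting error) and for the whole list on the numbered chromosomes, X and Y (diamonds). AP-1 stands at 37.9% against 25.8% in biosample 2, and the RUNX word is close to the whole list in both.

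Of 27 partners and regulators, 23 had a promoter peak in both lists (85.2%), beside 51.8% of all coding genes. Among genes with a CpG ratio of at least 0.6 at their upstream start the share was 80.2%. The CpG ratios of the 27 were not looked at, so their share is not read as particular to them. The 23 included the Groucho-type corepressors Tle1, Tle3 and Tle4 (scores of 136 to 145 in biosample 1 and 75 to 82 in biosample 2), Ets1, a cooperating DNA-binding factor (140 and 62), the coactivator Ep300 (138 and 65), Smurf1, a ubiquitin ligase that targets Runx2 (148 and 104), and Twist1 and Twist2, which restrain Runx2 (133 and 58, and 142 and 65). Runx1t1, known as the ETO partner of a leukaemia fusion with Runx1, had a peak of 112 in biosample 1 alone, and Cbfa2t3, Dlx5 and Msx2 had none.

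Of 12 bone and cartilage targets, 3 had a promoter peak in both lists (25%), beside 51.8% of all coding genes. The 3 were Spp1, encoding osteopontin (130 and 44), Col1a1, the main collagen of bone and of fibroblasts (137 and 81), and Vegfa (139 and 53). Mmp13, a collagenase (97), Tnfrsf11b (60) and Ibsp (39) had one in biosample 1 alone. Sp7, Bglap, Bglap2, Col10a1, Ihh and Phex, which mark bone or cartilage cells, had none. Of 12 blood targets, 3 had a peak in both lists (25%, beside the same 51.8%), 4 in biosample 1 alone and 5 in neither. The 3 were Zbtb7b (143 and 84), Csf1r (125 and 44) and Itgal (94 and 36). All 6 cell cycle and survival targets had a peak in both, beside the same 51.8%, among them Ccnd2 (146 and 87), Timp1 (143 and 71) and Cdkn1a (140 and 59). Of the 57 genes in these lists, 35 (61.4%) were accessible in both biosamples, beside the 51.8% of all coding genes given above.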

How the data were processed

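DNase-seq was done on 3T3-L1 cells, 4 libraries from 2 biosamples. Per the labels, reads were handled on the mm10 assembly, and the authors deposited 1 peak list and 1 hotspot list per biosample, made from its 2 libraries together. Which aligner and caller were used, and their versions, is not given in the sources used here. Peaks carry a score deposited by the authors, a whole number of up to 150 with no stated definition. The deposited hotspot column is a −log10 q value, from 1.30 to a cap of 100. In the 4 windows no value lay between 6 and 100, so the cap is not the top of an even scale. No read counts were used, so depth is unknown. No interval ran beyond a chromosome end of GRCm38.

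Members and their windows came from GENCODE M21. P1 and P2 were told apart by the translated N terminus of complete coding transcripts. Intervals were called shared when they overlapped by at least 1 bp. Scores were turned into mid-rank percentiles within their list. Sequences came from the RefSeq GRCm38.p6 genome. Python 3.11.15, pandas 2.3.3, pysam 0.24.0 and samtools 1.23.1 were used. The overlap and distance functions were checked on peaks sampled from biosample 2, with shifted copies for the overlaps, and the rank function on a few typed values. Named were all peaks within 1 kb of member starts, the 4 best shared other sites per member by mean percentile, the strongest unshared peak per list, neighbouring starts, the Runx1 +23 interval and the widest hotspots. The paired RUNX words, the Runx1 P1 flanking peaks, further shared Runx3 and Cbfb sites and the printed sequences were chosen after their values were seen. The marker and pathway lists and the members were chosen with earlier results of these data known. Pathway genes named are examples of their list. With 1 list per biosample, no comparison was tested; shares carry Wilson 95% intervals for counting error only.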

Additional observations from a re-analysis of the deposited data

How the results depend on the processing

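Of 17 alternatives to the shares and the start-site count, 15 stayed within the main value's 95% interval or within 1.5 times the count, and 2 did not: the share of biosample 2 window peaks that were shared, 93.1% as reported, was 100% when a hotspot of biosample 1 counted as a match and 98.0% in the stronger 50% of each list (whole list 98.6% and 97.8%). The 4 start groups with a peak in both lists became 5 with a 2 kb window, which added Runx3 P1. Of 16 alternatives to the member counts, 6 moved by over 1.5 times: without flanks, Runx3 had 8 and 3 peaks and Cbfb 12 and 2, and with 100 kb flanks Runx3 had 61 and 19. Libraries were pooled by the authors, so leaving out a replicate could not be run. No paired analysis was possible because no result comes from a test. Depth is unknown and limits every statement about a missing peak, above all those on the shorter list of biosample 2.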
